A study of Mus musculus with 6 samples.

Results

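The lecticans are the large chondroitin sulfate proteoglycans of the brain's extracellular matrix. The genes described here are the lectican genes Vcan, Bcan, Ncan and Acan, the link protein genes Hapln1 and Hapln4, the hyaluronan synthase gene Has2, and Tnr and Ptprz1, which encode tenascin-R and a receptor phosphatase that carries chondroitin sulfate chains. They are 9 of the 19938 genes measured. They were chosen by name, each from a probe set annotated with that gene symbol only, and each has 1 such probe set.

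In this matrix, hyaluronan is spun out at the cell surface by the synthases, and lecticans bind along it through their amino-terminal domain. Link proteins clamp lectican and hyaluronan together, and tenascin-R crosslinks lecticans at their other end through the C-type lectin domain. The same components form the diffuse matrix of the developing brain and, later, the perineuronal nets that wrap certain neurons, where they limit plasticity.

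All cultures came from the mouse embryonic stem cell line W4, differentiated towards neurons for 16 days. The VPA cultures received 300 uM valproate, an antiepileptic drug that inhibits histone deacetylases, throughout those 16 days, and the PBS cultures received the solvent, phosphate-buffered saline. Each group had 3 arrays, which the design text calls biological replicates, and all 6 came from the 1 cell line. Values are the authors' normalized log2 signals, and a change is VPA minus PBS, tested with limma at an adjusted p under 0.05 over all genes.

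The cultures are mixed, and a bulk signal cannot tell fewer cells of a type from less RNA per cell. Of 12 neuronal markers, 12 lay above the background gauge of 6.155, the 95th percentile of the mean signals of 1027 olfactory receptor genes. Where a mean lay below it, expression and background could not be told apart. Array medians lay between 6.99 and 7.03. VPA replicate 1 stood apart from its group, with a median absolute difference of 0.125 and 0.132 from the other VPA arrays over all genes, against 0.0605 to 0.073 within the other pairs of the same group. Results are therefore also given without it where that matters.

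Of the 9 genes, 5 rose with VPA (Vcan, Bcan, Hapln4, Has2 and, below the background gauge, Hapln1), 2 fell (Tnr and Ptprz1), and 2 did not pass the test (Ncan and Acan). The same 5 and 2 passed without VPA replicate 1. Among all genes, 13.6% were called higher and 15.7% lower, 29.2% in either direction. The VPA and PBS arrays did not overlap for 7 of the 9 genes, VPA being above PBS for 5 and below for 2. Over all genes they did not overlap for 44.0%, with VPA above PBS for 20.2% and below for 23.8%. The median change over the 9 genes was 0.42, and 0.0013 over all genes. Over all genes 2702 were called higher and 3123 lower, and without PBS replicate 2 there were 1778 higher and 2058 lower. The members and the lists below were chosen with earlier results of these arrays known, so these counts are descriptions.

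**Figure D1:**
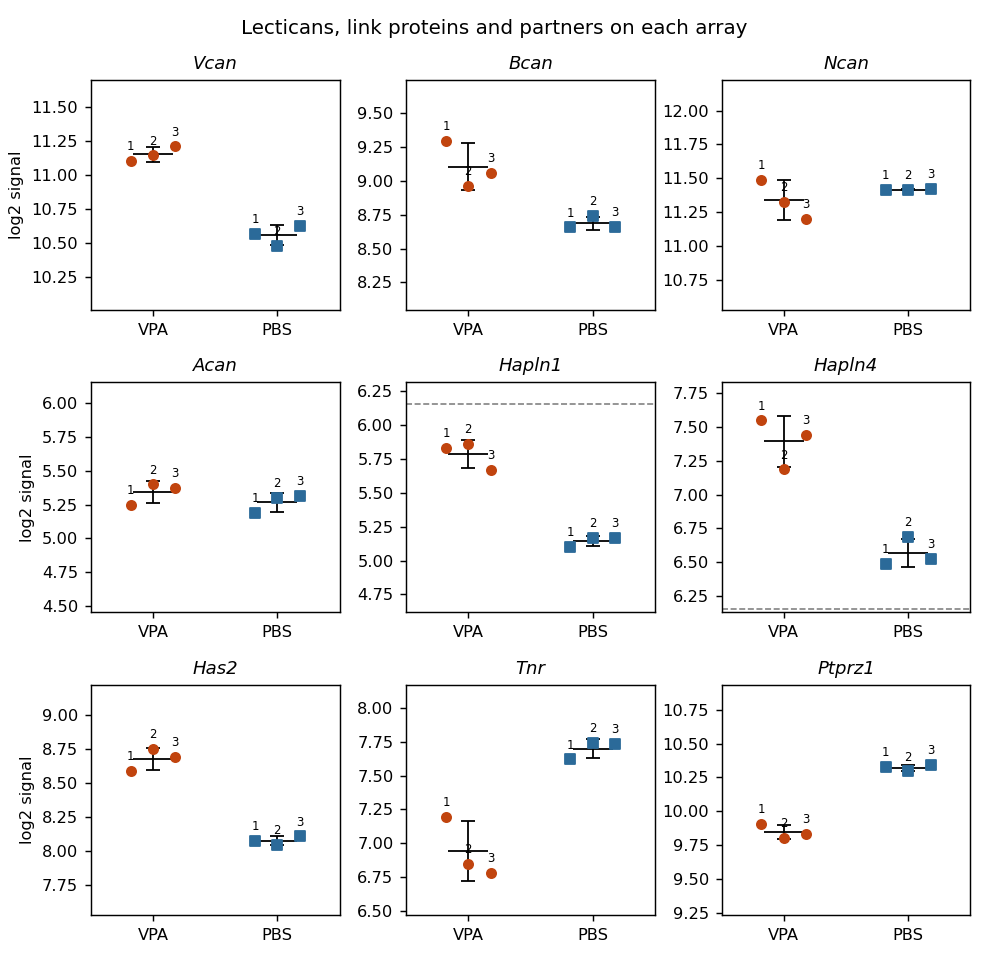
Log2 signal of each gene (y axis, the same span of log2 units in each panel) on the VPA arrays (circles, left) and the PBS arrays (squares, right), numbered by replicate, with the mean (line) and SD (bars, n = 3). The dashed line is the background gauge of 6.155. The groups are apart for 7 genes, overlap for Ncan and Acan, and lie below the gauge for Hapln1 and Acan.

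Vcan encodes versican, the lectican of embryonic mesenchyme, heart and neural crest pathways as well as of brain. Its log2 signal was 11.10, 11.15 and 11.21 in VPA replicates 1 to 3, against 10.57, 10.48 and 10.63 in PBS replicates 1 to 3. All VPA arrays were above all PBS arrays, and the spread within each group was small beside the gap. The rise was 0.60 on the log2 scale, or 1.51-fold (SE 0.06, adjusted p = 0.00016). A larger rise was measured for 670 of the 19938 genes.

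Bcan encodes brevican, a lectican made mainly in brain, by astrocytes and some neurons. It measured 9.30, 8.96 and 9.06 in the VPA replicates and 8.66, 8.74 and 8.66 in the PBS replicates. VPA replicate 1 was the highest, and the lowest VPA array still lay above the highest PBS array. The rise was 0.42, or 1.34-fold (SE 0.09, adjusted p = 0.00631), and 0.32 without VPA replicate 1 (adjusted p = 0.00256). The call was lost when variances were not moderated across genes (adjusted p = 0.0674).

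Ncan encodes neurocan, a lectican of brain that neurons make during development. Its log2 signal was 11.49, 11.32 and 11.20 with VPA, against 11.41, 11.41 and 11.42 with PBS. The PBS arrays were almost identical (SD 0.0055), while the VPA arrays spread to both sides of them (SD 0.15, n = 3 each). The change was -0.08 (SE 0.08, adjusted p = 0.489), with a 95% interval from -0.25 to 0.09, and its sign turned after quantile normalization (0.0034). A rise the size of that of Vcan or Bcan lies outside this interval. Without VPA replicate 1 the change was -0.15 (adjusted p = 0.0522).

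Acan encodes aggrecan, the lectican of cartilage and of perineuronal nets. It measured 5.25, 5.40 and 5.37 with VPA and 5.19, 5.30 and 5.32 with PBS. The groups overlapped, and all 6 values lay below the background gauge. The measured difference was 0.07 (95% interval from -0.07 to 0.22, adjusted p = 0.446), with the signal not separable from background in either group.

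Hapln4 encodes a link protein made in brain and found in perineuronal nets of the hindbrain. Its signal was 7.55, 7.19 and 7.44 in the VPA replicates, against 6.49, 6.69 and 6.52 in the PBS replicates. Every VPA array was higher than every PBS array, although both groups spread more than those of Vcan. The rise of 0.83, or 1.77-fold (SE 0.10, adjusted p = 0.000305), was the largest change among the 9 genes. It was 0.75 without VPA replicate 1, and 340 of all genes rose by more.

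Hapln1 encodes the link protein of cartilage, which is also found in perineuronal nets. It measured 5.83, 5.86 and 5.67 with VPA and 5.10, 5.17 and 5.17 with PBS. The groups did not overlap, and the measured difference was 0.64 (SE 0.07, adjusted p = 0.000154). Both means, 5.79 with VPA and 5.15 with PBS, lay below the background gauge, so the size of this difference in RNA is not defined.

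Has2 encodes the main hyaluronan synthase of the embryo, needed for heart development. Its signal was 8.59, 8.75 and 8.69 with VPA, against 8.08, 8.05 and 8.11 with PBS. The groups were well separated, with the lowest VPA array above the highest PBS array. The rise was 0.60, or 1.52-fold (SE 0.06, adjusted p = 0.000144). Its course over the 6 arrays was closer to that of Vcan than that of any other pair of the 9 genes. After subtracting each gene's mean, these 2 genes differed by a root mean square of 0.0493 log2 units over the 6 arrays, which share their group difference.

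Tnr encodes tenascin-R, which is made by oligodendrocyte lineage cells and some neurons. It measured 7.20, 6.85 and 6.78 in the VPA replicates, against 7.62, 7.74 and 7.73 in the PBS replicates. Each VPA array was below each PBS array, and VPA replicate 1 lay nearest to the PBS arrays. Tnr fell by 0.75, or 1.69-fold (SE 0.10, adjusted p = 0.000721), and without VPA replicate 1 it fell by 0.88 (adjusted p = 2.3e-05). A larger fall was measured for 220 of all genes.

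Ptprz1 encodes a receptor phosphatase of radial glia, astrocytes and oligodendrocyte precursors, whose secreted form, phosphacan, binds tenascins. Its signal was 9.91, 9.80 and 9.84 with VPA and 10.33, 10.29 and 10.34 with PBS. The arrays of each group lay close together and the groups were apart. Ptprz1 fell by 0.47, or 1.39-fold (SE 0.06, adjusted p = 0.000317).

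In the mouse annotation each lectican gene lies next to a link protein gene, with no protein-coding gene between them. Vcan lies beside Hapln1, and these changed by 0.60 and, measured below the gauge, 0.64. In this pair both genes passed. Bcan, which rose, lies beside Hapln2, a link protein gene of myelinated axons, whose signal was 6.19 ± 0.09 with VPA and 6.17 ± 0.07 with PBS (SD, n = 3 each, change 0.02, adjusted p = 0.877). Ncan, which did not pass, lies beside Hapln4, which rose by 0.83. In these pairs 1 gene of each passed, and the difference between neighbours was not tested. Acan and its neighbour Hapln3, at 5.62 ± 0.07 with VPA and 5.51 ± 0.07 with PBS, were both below the gauge. The gene on the other side of Bcan is Nes, which encodes the progenitor filament nestin and rose by 0.38 (SE 0.09). That call was lost without PBS replicate 2 (adjusted p = 0.0547) and when variances were left unmoderated (0.0926).

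**Figure D2:**
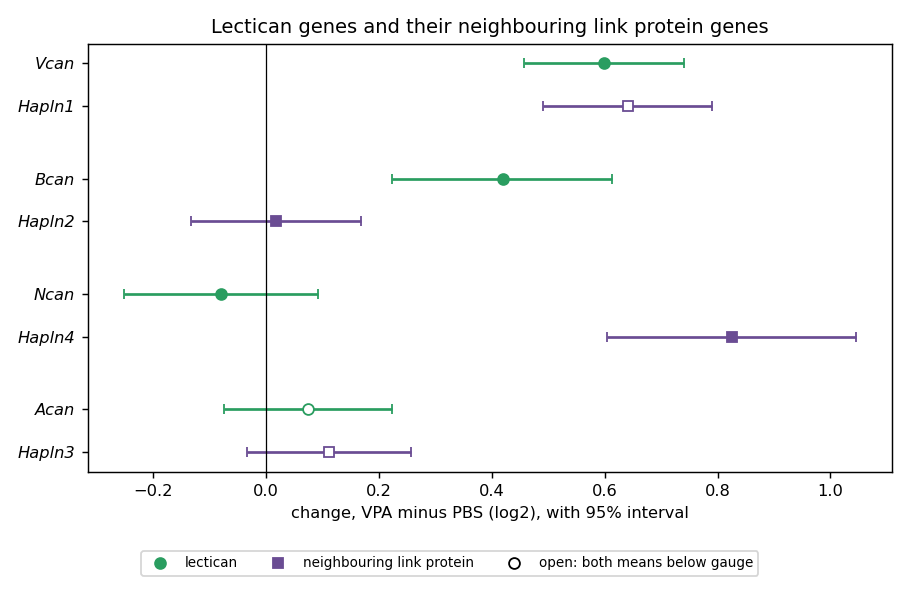
Change with VPA (x axis, log2, VPA minus PBS) with its 95% interval for each lectican gene (circles) and the link protein gene next to it (squares). Open symbols have both group means below the background gauge. The means of Hapln2 lie just above it. Vcan and Bcan among the lecticans and Hapln1 and Hapln4 among the link proteins lie clear of 0.

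Promoter sequences of 7 of the 9 genes were found in RefSeq (build GRCm38.p6, from 250 bases before to 50 bases after the gene's start); Has2 and Hapln4 had no entry in the table used. The windows of 2 genes that rose and of the 2 that fell are shown, since they differ widely in base composition. Capitals mark the GC box GGGCGG, a binding motif of Sp-family factors, or its reverse complement CCGCCC.
Vcan, chr13:89742463-89742762, minus strand: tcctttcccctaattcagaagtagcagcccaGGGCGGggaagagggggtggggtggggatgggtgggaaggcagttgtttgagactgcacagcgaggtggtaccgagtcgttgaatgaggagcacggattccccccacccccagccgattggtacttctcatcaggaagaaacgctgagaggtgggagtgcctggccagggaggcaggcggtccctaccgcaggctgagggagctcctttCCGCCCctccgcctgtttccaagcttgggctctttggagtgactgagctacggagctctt
Bcan, chr3:88000307-88000606, minus strand: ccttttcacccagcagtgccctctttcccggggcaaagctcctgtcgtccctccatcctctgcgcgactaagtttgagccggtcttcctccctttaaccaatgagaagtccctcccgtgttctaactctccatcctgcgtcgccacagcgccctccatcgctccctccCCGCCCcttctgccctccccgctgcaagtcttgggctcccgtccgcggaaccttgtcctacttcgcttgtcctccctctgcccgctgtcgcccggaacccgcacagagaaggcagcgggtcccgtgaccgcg
Tnr, chr1:159523519-159523818, plus strand: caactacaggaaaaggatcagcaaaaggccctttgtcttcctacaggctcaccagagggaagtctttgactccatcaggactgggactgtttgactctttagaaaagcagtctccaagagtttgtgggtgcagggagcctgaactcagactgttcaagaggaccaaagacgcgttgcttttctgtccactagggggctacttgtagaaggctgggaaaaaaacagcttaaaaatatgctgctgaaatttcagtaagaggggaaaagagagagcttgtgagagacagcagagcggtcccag
Ptprz1, chr6:22875252-22875551, plus strand: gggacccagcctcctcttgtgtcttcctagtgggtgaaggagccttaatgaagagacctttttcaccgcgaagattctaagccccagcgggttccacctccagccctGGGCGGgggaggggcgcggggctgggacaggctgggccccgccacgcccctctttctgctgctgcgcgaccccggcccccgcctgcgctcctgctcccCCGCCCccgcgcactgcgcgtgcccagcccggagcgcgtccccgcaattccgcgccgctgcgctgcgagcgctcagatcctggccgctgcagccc
The Vcan window held 2 GC box matches, the Bcan window 1, the Ptprz1 window 2 and the Tnr window 0, and 35.7% of 32851 promoter windows of the same length held at least 1. CpG dinucleotides numbered 12 in the Vcan window, 24 in Bcan, 29 in Ptprz1 and 3 in Tnr, against a median of 7 over all windows. Of the windows not shown, Hapln1 held 3 CpG dinucleotides and 0 GC box matches, Ncan 9 and 1, and Acan 31 and 3. A match describes the letters of the window and does not show that a factor binds there.

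**Figure D3:**
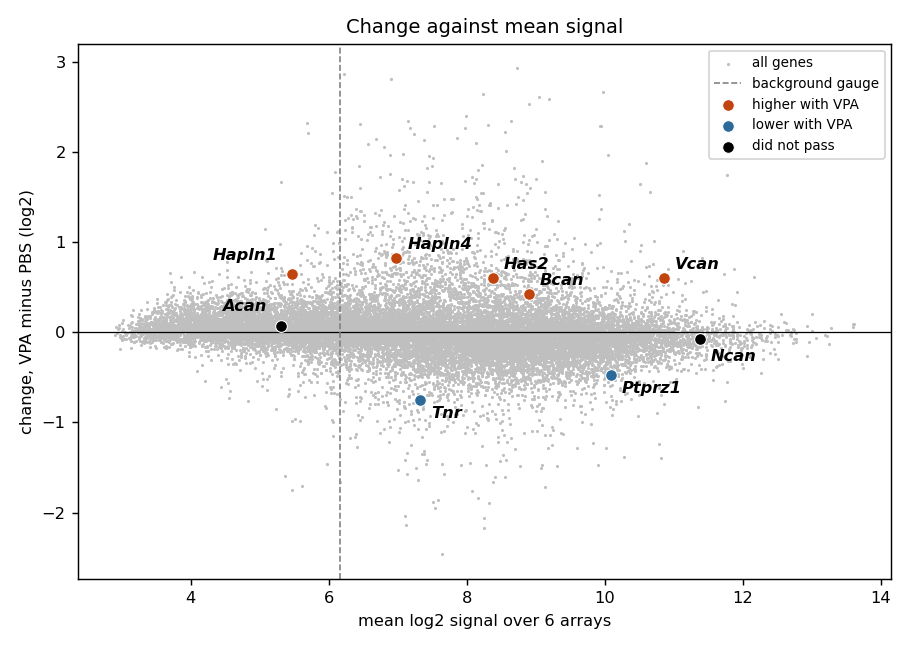
Change with VPA (y axis, log2, VPA minus PBS) against the mean log2 signal over the 6 arrays (x axis) for all 19938 genes (grey) and the 9 genes named (coloured by call). The dashed line is the background gauge. Hapln4 and Tnr show the largest rise and fall among the 9, and Hapln1 and Acan lie left of the gauge.

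By the same measure of likeness, the genes most like Hapln4 over the 6 arrays were Thbs1, which encodes the matrix protein thrombospondin, Afap1l2 and the Notch target gene Heyl, at root mean square differences of 0.0464, 0.0545 and 0.0579. Tnr was most like the RNA-binding protein gene Celf4, the natriuretic peptide receptor gene Npr2 and the semaphorin gene Sema4a, at 0.0516, 0.0519 and 0.0558. Has2 was most like the transcription factor gene Runx1, Tom1l1 and the R-spondin receptor gene Lgr5, at 0.0244, 0.0274 and 0.0294. For Hapln1 the closest were Tgfb1, which encodes a growth factor, the glycan-processing gene Man2a1 and the transcription factor gene Tfap2a, at 0.0339, 0.036 and 0.0434. These values describe 6 arrays in 2 groups and were not tested.

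Of the other link protein and synthase genes, Hapln2, Hapln3, Has1 and Has3, 1 of 4 passed the test (median change 0.06). This gene, Has3, measured 5.91 ± 0.11 with VPA and 6.36 ± 0.08 with PBS (SD, n = 3 each), a change of -0.46 (SE 0.07) that ended below the gauge. Has1 measured 5.45 ± 0.20 with VPA and 5.33 ± 0.01 with PBS, below the gauge in both groups (adjusted p = 0.383, and 0.0144 without VPA replicate 1). Of the 3 synthase genes, Has2 alone had means above the gauge in both groups.

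Among hyaluronan receptors, binders and degrading enzymes, 4 of 18 rose and 1 fell (median change 0.01). Cd44, which encodes the main hyaluronan receptor, measured 7.49 ± 0.03 with VPA and 6.94 ± 0.01 with PBS (SD, n = 3 each), a rise of 0.54 (SE 0.05, adjusted p = 0.000109). Tnfaip6, which encodes an enzyme that links heavy chains onto hyaluronan, measured 6.98 ± 0.05 with VPA and 5.47 ± 0.11 with PBS. Itih5, of the heavy chain family, measured 7.16 ± 0.26 with VPA and 6.08 ± 0.07 with PBS. Both genes passed, from PBS means below the gauge. The hyaluronidase-family gene Hyal3 changed by -0.43 (SE 0.07).

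Enzymes that build and sulfate the chondroitin sulfate chains were split, with 7 of 24 higher and 3 lower (median 0.08). The largest rises belonged to 2 genes of dermatan sulfate synthesis and 1 gene of uronic acid sulfation. The epimerase gene Dse rose by 0.86 (SE 0.07) and the uronyl sulfotransferase gene Ust by 0.68 (SE 0.08). The dermatan sulfotransferase gene Chst14 rose by 0.66 (SE 0.06). Dsel, the other epimerase gene of the list, named after its value was seen, did not pass (change -0.005, adjusted p = 0.956). Csgalnact1, which starts the chondroitin chain, rose by 0.33 (SE 0.08) from a PBS mean of 6.14, just below the gauge. Its call was lost without VPA replicate 2, PBS replicate 2 or PBS replicate 3 (adjusted p = 0.0524, 0.0505 and 0.059), and without moderation (0.0886). The 3 lower genes, named after their values were seen, were Xylt1, which attaches the first sugar of the chain, B3galt6 and the sulfate donor gene Papss1, at -0.33, -0.30 and -0.23. These counts were fragile. The higher count was 4 without VPA replicate 2, PBS replicate 2 or PBS replicate 3, and the lower count was 6 without VPA replicate 1 and 1 without VPA replicate 3 or PBS replicate 2. Without VPA replicate 2, PBS replicate 1 or PBS replicate 3, all 3 lower calls were lost, as they were without moderation.

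Of 12 genes for proteases that cut lecticans, a list which also holds the inhibitor gene Timp3, 6 rose and 1 fell (median 0.22). Adamts9 measured 9.91 ± 0.08 with VPA and 8.36 ± 0.02 with PBS (SD, n = 3 each), a rise of 1.55 (SE 0.06, adjusted p = 1.25e-06). Adamts1, whose product cleaves versican and aggrecan, measured 8.88 ± 0.05 with VPA and 7.48 ± 0.16 with PBS, a rise of 1.41 (SE 0.08, adjusted p = 7.3e-06). The gelatinase gene Mmp2 rose by 0.97 (SE 0.07) and Timp3, an inhibitor of these proteases, by 1.29 (SE 0.16). The 1 gene that fell, the aggrecanase gene Adamts5, is named after its value was seen and changed by -0.46 (SE 0.08).

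The C-type lectin end of the lecticans also binds other matrix proteins. Of 6 measured genes for other tenascins, fibulins and fibrillins, 3 rose and 1 fell (median 0.25). Tnc, which encodes the tenascin of progenitors and glia, measured 11.03 ± 0.04 with VPA and 11.31 ± 0.05 with PBS (SD, n = 3 each), a change of -0.28 (SE 0.06). Fbln1 and Fbln2, fibulin genes whose products bind lecticans, rose by 1.02 (SE 0.09) and 0.56 (SE 0.10), and the fibrillin gene Fbn2 by 1.08 (SE 0.07). Fbln2 did not pass when variances were left unmoderated (adjusted p = 0.0518).

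The next list held PTPRZ1 ligands, contactins and other neural adhesion genes. Of 11 measured, 6 fell and 1 rose (median -0.41). Whether each of these adhesion proteins binds PTPRZ1 was not examined. Pleiotrophin and midkine are related growth factors that bind the receptor through its chondroitin sulfate. The pleiotrophin gene Ptn measured 11.25 ± 0.11 with VPA and 11.67 ± 0.04 with PBS (SD, n = 3 each), a change of -0.41 (SE 0.07, adjusted p = 0.00216). The midkine gene Mdk, named after its value was seen, was the 1 that rose, by 0.42 (SE 0.06, adjusted p = 0.000704). Among contactin genes, which encode adhesion proteins of axons, Cntn6 changed by -1.66 (SE 0.09) to a VPA mean of 5.33, below the gauge, Cntn4 by -0.84 (SE 0.07) and Cntn5 by -0.44 (SE 0.06). Cntn1, named after its value was seen, changed by -0.10 (SE 0.06) and did not pass (adjusted p = 0.239). L1cam changed by -0.48 (SE 0.11), a call lost without moderation (adjusted p = 0.0941).

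Of 9 genes listed for chondroitin sulfate receptors, their relatives and co-receptors, 2 rose and 1 fell (median 0.08), and 3 fell without VPA replicate 1. Whether each product binds chondroitin sulfate was not examined. Ngfr, the neurotrophin receptor gene whose product joins the Nogo receptor complex, rose by 1.08 (SE 0.14). The Nogo receptor family genes Rtn4rl2 and Rtn4rl1 changed by 0.37 (SE 0.08) and -0.45 (SE 0.08), and neither call held without moderation (adjusted p = 0.0602 and 0.0506).

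Other proteoglycan genes moved both ways, with 5 of 18 higher and 4 lower (median 0.05), and 7 lower without VPA replicate 1. Gpc3, a glypican gene of embryonic mesenchyme, measured 11.08 ± 0.05 with VPA and 8.79 ± 0.15 with PBS (SD, n = 3 each), a rise of 2.28 (SE 0.08). Tgfbr3, which encodes betaglycan, rose by 1.10 (SE 0.11) and the syndecan gene Sdc1 by 0.66 (SE 0.08). The neural genes Spock3, a testican gene, and Cspg5, which encodes neuroglycan C, changed by -1.11 (SE 0.12) and -0.65 (SE 0.06). Of 9 measured genes for proteins held in perineuronal nets or for neurons that bear them, 3 rose and 4 fell (median -0.22). The guidance factor gene Sema3a rose by 0.69 (SE 0.09), Nptx2 by 0.57 (SE 0.09) and Crtac1 by 0.73 (SE 0.11), while Otx2, a homeobox gene whose protein is taken up by net-bearing neurons, changed by -1.24 (SE 0.11). Pvalb, the marker of net-bearing interneurons, named after its value was seen, was among the 4 that fell. Pvalb was below the gauge in both groups, at 5.33 with VPA and 5.78 with PBS. The other falls, Kcnc1 and Kcnc2, also named after their values were seen, were -0.33 (SE 0.07) and -0.30 (SE 0.08). Neither call held without moderation (adjusted p = 0.0533 and 0.087). That of Kcnc2 was also lost without PBS replicate 2 or PBS replicate 3 (0.0757 and 0.0559).

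**Figure D4:**
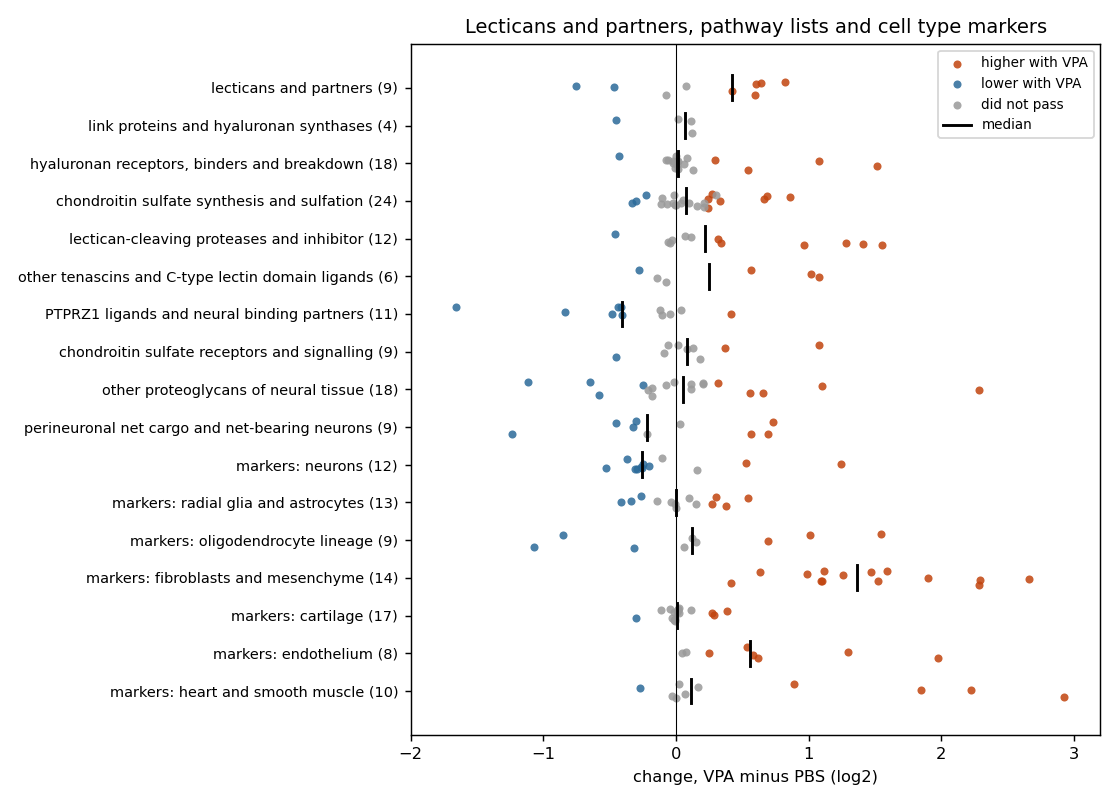
Change with VPA (x axis, log2, VPA minus PBS) for the 9 genes and for each member measured of the pathway lists and cell type marker lists (rows, number measured in parentheses), coloured by call, with the median as a bar. Points are spread vertically for legibility. Fibroblast and mesenchyme markers lie wholly to the right of 0, and neuronal markers mostly to the left.

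Markers of the cell types that can make these matrix components were measured on the same arrays, and their part in the changes above was not tested. All 14 fibroblast and mesenchyme markers rose (median 1.37), and the sum of their linear signals was 12093 to 13362 on VPA arrays and 3624 to 4238 on PBS arrays. Postn, Lum, Dcn and Prrx1 rose by 2.66 (SE 0.13), 2.29 (SE 0.12), 2.28 (SE 0.10) and 1.90 (SE 0.07). Of the 14, 0 had a mean below the gauge. Vcan, Has2 and Cd44 are also expressed by mesenchyme.

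Of 17 cartilage markers, 6 with a mean below the gauge, 3 were higher and 1 lower (median 0.00). The summed signals were 3816 to 4038 on VPA arrays and 3718 to 3768 on PBS arrays. The 1 that fell, Sox6, changed by -0.30 (SE 0.08). Its call was lost without VPA replicate 3, PBS replicate 1 or PBS replicate 2 (adjusted p = 0.0762, 0.0866 and 0.0538), and without moderation (0.114). Col2a1, the collagen gene that defines cartilage, measured 7.77 ± 0.01 with VPA and 7.75 ± 0.01 with PBS (SD, n = 3 each, adjusted p = 0.767). Sox9, the master transcription factor gene of cartilage, measured 10.53 ± 0.16 with VPA and 10.42 ± 0.03 with PBS (adjusted p = 0.344). It was the brightest gene of the list, so the summed signals lean on it. Col11a1 and Sox5, which like Sox9 are shared by other tissues, rose by 0.39 (SE 0.06) and 0.29 (SE 0.05), and Snorc by 0.27 (SE 0.08), below the gauge in both groups. The call of Snorc was lost with the replicate number as a block (adjusted p = 0.0646), when variances were left unmoderated (0.144), and without VPA replicate 2 (0.111), PBS replicate 1 (0.0933), PBS replicate 2 (0.143) or PBS replicate 3 (0.0631).

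Neuronal markers were mostly lower, with 2 of 12 higher and 8 lower (median -0.25). Without PBS replicate 1 the lower count was 5, and without PBS replicate 2 it was 4. Their summed signals were 23576 to 23742 on VPA arrays and 26344 to 27508 on PBS arrays. The tau gene Mapt and the doublecortin gene Dcx changed by -0.53 (SE 0.08) and -0.37 (SE 0.06). Both rises were of neurofilament genes, Nefm by 1.24 (SE 0.06) and Nefl by 0.53 (SE 0.06). Radial glia and astrocyte markers gave 4 of 13 higher and 3 lower (median 0.00), and 2 higher without PBS replicate 2. Of the 13, 2 had a mean below the gauge. The sums were 17259 to 18155 on VPA arrays and 17271 to 17448 on PBS arrays. These sums lean on Fabp7, the brightest gene of the list, named after its value was seen. Fabp7 changed by -0.04 (SE 0.07) and did not pass (adjusted p = 0.713). Pax6 rose by 0.54 (SE 0.07), and the astrocyte genes Aldh1l1 and Slc1a2 changed by -0.42 (SE 0.07) and -0.34 (SE 0.06). Other astrocyte genes went both ways. Gja1, Aldoc and Gfap, named after their values were seen, changed by 0.30 (SE 0.06), 0.27 (SE 0.08) and -0.27 (SE 0.08). The calls of Aldoc and Gfap were lost without VPA replicate 1 (adjusted p = 0.0581 and 0.0608), among other settings.

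The oligodendrocyte lineage list bears on Tnr and, like the radial glia and astrocyte list, on Ptprz1. In it 3 of 9 rose and 3 fell (median 0.12), and 2 of the 9 had a mean below the gauge. The lineage factor genes went both ways. Olig1 and Olig2 changed by -1.07 (SE 0.11) and -0.85 (SE 0.14), the second call being lost without moderation (adjusted p = 0.0569). Sox10, named after its value was seen, rose by 0.69 (SE 0.09, adjusted p = 0.000707). The precursor genes Pdgfra, which mesenchyme also expresses, and Gpr17 rose by 1.54 (SE 0.07) and 1.01 (SE 0.09). The summed signal was 2138 to 2393 on VPA arrays and 1680 to 1927 on PBS arrays. This sum leans on Pdgfra, the brightest gene of the list with VPA (mean 9.64, against 8.10 with PBS), so it does not measure the lineage alone. Of 8 endothelial markers 6 rose (median 0.56), and 2 of the 8 had a mean below the gauge. The sums were 986 to 1139 on VPA arrays and 587 to 630 on PBS arrays. Among those that rose were Cdh5 and Emcn, from PBS means below the gauge, and Cldn5 and Pecam1, by 0.62 (SE 0.08) and 0.58 (SE 0.08). Erg, also among the 6 and named after its value was seen, lay below the gauge in both groups. Its call was lost without VPA replicate 2 or any 1 PBS array, and without moderation (adjusted p = 0.104). Of 10 heart and smooth muscle markers 4 rose and 1 fell (median 0.11, sums of 2561 to 3901 on VPA arrays and 1076 to 1116 on PBS arrays). The 4 were Actc1, Myl4, Acta2 and Tnnt2, which rose by 2.93 (SE 0.18), 2.22 (SE 0.18), 1.85 (SE 0.14) and 0.89 (SE 0.10). The 1 that fell, Cnn1, named after its value was seen, lay below the gauge in both groups, and its call was lost on leaving out any 1 array. Of the 10 heart and smooth muscle markers, 3 had a mean below the gauge.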

How the data were processed

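The authors deposited 1 column of normalized log2 signals per array. Base 2 was inferred from the range, 2.50 to 13.89. How background was corrected, probes summarized and arrays normalized is not stated in the sources used here. Per the submitters' processing notes, Partek 6.5 and mm9 were used, with no role given. Of 35556 probe sets, 21789 carried exactly 1 gene symbol in GEO's platform annotation. Of these, 21698 were matched to a current symbol by Entrez ID, and the others kept the annotated symbol. Each gene was represented by its brightest probe set. VPA was compared with PBS in limma 3.58.1 (R 4.3.3; lmFit, eBayes, no covariates), with Benjamini-Hochberg adjustment over 19938 genes. An exact permutation test of 3 against 3 arrays cannot give a two-sided p below 0.1 and was not used. The fit was tested on simulated arrays.

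The members and the 16 lists were chosen with earlier results of these data known. Named from each list were up to 4 genes past the threshold with the largest change, and Hapln2, Hapln3, Has1, Has3, Tnc, Cd44, Ptn, Cspg5, Sox9 and Col2a1 in any case; the 3 genes most alike were named for the 4 members with the largest change. Gene neighbours came from a RefSeq table of GRCm38.p6, used for order only. Normalization flattens differences in total RNA, so changes are relative. The number of arrays limits the precision. Some listed genes are not reported here.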

Additional observations from a re-analysis of the deposited data

How the results depend on the processing

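The 7 member genes that passed kept their direction under all settings in which they were measured, as did Acan, while the change of Ncan, which did not pass, turned to 0.0034 after quantile normalization. Of 136 values 1 lost its call, that of Bcan without moderation of the variances (adjusted p = 0.0674). Filters at the 30th percentile and at the olfactory gauge, the second chosen after seeing the data, removed Hapln1 and Acan. The filter at the 50th percentile also removed Hapln4 and Tnr and left 3 members higher and 1 lower. The count of all genes higher was 1520 with that filter, 1631 without moderation and 4342 with array weights, against 2702 as reported. Leaving out 1 array gave 1778 to 3949 genes higher and 2058 to 4224 lower. Quantile normalization gave 3147 higher and 2671 lower. The cause of these shifts was not tested, beyond the smaller number of genes under the filters. With the replicate number as a block 2592 genes were higher and 2818 lower, and the members' calls were the same 5 and 2, while that of Snorc was lost (adjusted p = 0.0646); same-numbered arrays did not deviate together (correlations of -0.02, -0.008 and 0.02 over genes). Of 1043 values of the other genes named by the rule above, 21 lost and 2 gained a call, and 0 called values turned in sign. Genes named after their values were seen are not in this count. Of these, Xylt1, B3galt6, Papss1, Cnn1, Kcnc1, Kcnc2, Aldoc, Gfap and Erg lost their calls under some settings. Adamts5, Mdk, Sox10, Pvalb and Gja1 kept theirs, and Cntn1, Dsel and Fabp7, which did not pass, gained none. Signal over background limits Hapln1 and Acan.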
